A study of Mus musculus with 12 samples.

Results

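Rab proteins are small GTPases that mark the membranes of the cell, and their genes were followed here in mouse muscle under a high fat diet and after loss of the fatty acid receptor GPR120. A gene was a member if its symbol was Rab, a number and at most 1 letter, and if a probe set of the array named that gene alone. The rule found 59 of the 18193 genes with such a probe set, through 132 probe sets, and the brightest probe set stood for each gene. Of the 59, 45 passed the signal filter and were among the 11345 genes tested, and 14 were too dim. The other 13 symbols that begin with Rab and a number belong to interactors and antisense transcripts and were left out.

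Muscle RNA came from 12 mice of 16 weeks in 4 groups of 3: GPR120 knockout on a high fat diet (KO HFD), GPR120 knockout on a normal diet (KO ND), wild type on a high fat diet (WT HFD) and wild type on a normal diet (WT ND). All mice shared a mixed background of 129/Sv and C57BL/6. The labels used here do not state how the gene was disrupted, nor the sex, muscle site, diet length or hybridisation batch. The numbers of the mice cover a separate range in each group, so group and cohort cannot be told apart.

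A Rab protein switches between a GTP-bound form, which sits on a membrane and recruits effectors, and a GDP-bound form, which a GDP dissociation inhibitor (GDI) can draw back into the cytosol. Guanine nucleotide exchange factors (GEFs) load GTP and GTPase-activating proteins (GAPs), most with a TBC domain, end the active state. In muscle, Rabs are best known for carrying the glucose transporter GLUT4 to the cell surface, a step held back by the GAPs Tbc1d1 and Tbc1d4 until insulin or contraction acts on them.

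Signals are log2 values of single probe sets, so the level of a gene is compared between arrays and never with another gene's. Ffar4, which encodes GPR120, averaged 2.31 ± 1.18 in KO HFD, 2.48 ± 1.89 in KO ND, 1.41 ± 0.93 in WT HFD and 0.23 ± 1.86 in WT ND (SD, n = 3 each). Its only probe set lay below the filter of 3.78, so it does not check the genotype labels. All 9 muscle identity genes measured were above the filter. In whole muscle RNA, fewer cells of a type and less RNA per cell cannot be told apart. A gene passed the test in a comparison if its p-value, adjusted over all 11345 genes, was under 0.05.

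Of the 45 tested Rab genes, 7 passed in at least 1 of the 7 comparisons made. They were Rab29, Rab15, Rab40b, Rab13, Rab20 and Rab5a with diet, and Rab6b with genotype. The share of all genes that passed in any of the 7 was not counted, so nothing is read from this number. In the averaged diet comparison alone 13.7% of all genes passed. Rab6b passed the filter through its knockout arrays and had to differ, so its call is a description. The windows around the annotated start of 5 of them are shown here because, among the 7, they had the largest differences in the comparisons they passed, and so that the sequence beside each gene can be read. Each holds 250 bases before the start and 50 after, on the gene's strand, 5′ to 3′, from RefSeq's annotation of GRCm38.p6. Capitals mark matches, on either strand, to 4 motifs searched after the values were known: the E-box CACGTG, the GC box GGGCGG, the CCAAT box and the TATA box TATAAA. No matches shared bases.
Rab29, chr1:131867027-131867326, plus strand: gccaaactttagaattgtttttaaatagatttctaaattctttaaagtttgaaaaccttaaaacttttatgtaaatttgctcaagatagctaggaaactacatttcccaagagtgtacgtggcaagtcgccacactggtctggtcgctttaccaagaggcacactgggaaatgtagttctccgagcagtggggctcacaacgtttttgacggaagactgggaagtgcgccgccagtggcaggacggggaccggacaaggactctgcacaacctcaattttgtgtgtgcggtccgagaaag
Rab15, chr12:76822475-76822774, minus strand: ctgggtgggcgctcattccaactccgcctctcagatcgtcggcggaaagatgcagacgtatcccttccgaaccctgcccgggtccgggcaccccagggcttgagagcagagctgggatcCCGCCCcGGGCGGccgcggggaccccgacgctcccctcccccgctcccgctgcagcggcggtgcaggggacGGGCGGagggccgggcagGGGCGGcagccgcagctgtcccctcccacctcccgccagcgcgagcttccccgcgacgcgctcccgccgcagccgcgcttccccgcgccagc
Rab40b, chr11:121388202-121388501, minus strand: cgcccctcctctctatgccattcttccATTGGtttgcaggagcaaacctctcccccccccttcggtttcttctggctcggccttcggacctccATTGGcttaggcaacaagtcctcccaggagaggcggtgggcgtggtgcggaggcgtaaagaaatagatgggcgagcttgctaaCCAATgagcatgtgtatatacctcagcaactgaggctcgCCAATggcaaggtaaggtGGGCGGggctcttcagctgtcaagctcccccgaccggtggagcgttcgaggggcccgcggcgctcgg
Rab20, chr8:11478591-11478890, minus strand: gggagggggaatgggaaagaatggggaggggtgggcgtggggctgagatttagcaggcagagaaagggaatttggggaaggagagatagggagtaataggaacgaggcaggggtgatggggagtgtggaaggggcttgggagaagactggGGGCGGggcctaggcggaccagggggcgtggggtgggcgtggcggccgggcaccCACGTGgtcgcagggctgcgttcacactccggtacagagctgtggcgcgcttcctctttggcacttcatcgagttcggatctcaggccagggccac
Rab6b, chr9:103111824-103112123, plus strand: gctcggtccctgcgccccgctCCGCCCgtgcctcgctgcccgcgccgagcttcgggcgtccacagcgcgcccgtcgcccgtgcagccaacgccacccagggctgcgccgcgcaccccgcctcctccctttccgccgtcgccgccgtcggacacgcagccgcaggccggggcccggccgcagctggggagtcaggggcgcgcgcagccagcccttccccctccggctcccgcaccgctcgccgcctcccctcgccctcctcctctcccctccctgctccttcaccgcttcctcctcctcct

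The 3 genes that were higher on the high fat diet in knockout muscle had unlike windows. Rab15 held 4 GC boxes in the start shown, the first of its 4 annotated starts, and had 76.3% G or C. Rab40b held 4 CCAAT boxes and 1 GC box at 60.7% G or C. Rab29 held no match at 45.3% G or C. Rab20 held 1 E-box and 1 GC box, and Rab6b held 1 GC box at 78.7% G or C. Windows were found for 48 of the 59 members, 60 windows in all. A GC box was in 41 of the 60 (68.3%), against 35.9% of all 32544 windows, and the Rab windows had a median of 61.2% G or C, against 53% in all windows. A CCAAT box was in 43.3% of Rab windows and 37.4% of all, an E-box in 10% and 7.17%, and a TATA box in 6.67% and 13.6%.

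In knockout muscle Rab29, Rab15 and Rab40b rose on the high fat diet. These 3 of 45 tested members compare with 4.54% of all genes that passed in this comparison, and with 2.66% that passed as higher. No member passed as lower. At an unadjusted p under 0.05 limma gave 9 members, or 20%, against 19.9% of all genes, so the share of Rab genes moving was near that of the array.

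Rab29 helps to bring the kinase LRRK2 to Golgi and lysosomal membranes. Its log2 signal was 6.81, 6.42 and 6.65 in KO HFD, against 5.24, 5.67 and 5.82 in KO ND. The groups did not overlap. The difference was 1.05 (SE 0.19, 95% interval 0.65 to 1.45, adjusted p = 0.00856), a 2.07-fold higher signal. In wild type the values were 6.23, 6.39 and 6.15 in WT HFD, against 6.02, 5.77 and 6.07 in WT ND. Those groups did not overlap either, but the difference of 0.30 (SE 0.19) did not pass (adjusted p = 0.358). The diet effect in knockout minus that in wild type was 0.75 (interval 0.18 to 1.32, adjusted p = 0.36), which did not pass. Rab29 passed in the knockout under every alternative setting that tested it, and with each mouse left out in turn.

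Rab15 acts in endocytic recycling. It had 7.0, 7.09 and 7.27 in KO HFD, against 6.21, 5.62 and 6.16 in KO ND, with no overlap. The log2 difference was 1.12 (SE 0.27, adjusted p = 0.0328), or 2.18-fold. In WT HFD the values were 6.90, 6.60 and 6.70, against 5.55, 6.83 and 6.40 in WT ND, where the second mouse reached into the high fat range. The wild-type difference was 0.47 (SE 0.27, adjusted p = 0.311), and the 2 diet effects differed by 0.65 (adjusted p = 0.569). The knockout call on Rab15 was lost with median centring, with no intensity trend, with a covariate for RNA integrity (the log2 ratio of 3′ to 5′ control signal), and without any 1 of the 6 knockout mice (adjusted p between 0.0543 and 0.134 for the mice).

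Rab40b carries a SOCS box, through which it joins a Cullin 5 ubiquitin ligase. It had 8.50, 8.78 and 8.60 in KO HFD, against 8.13, 7.55 and 7.81 in KO ND. The wild-type values were 8.44, 8.16 and 8.50 in WT HFD, against 8.10, 8.04 and 7.65 in WT ND. The diet groups did not overlap in either genotype. The difference was 0.79 (SE 0.17, adjusted p = 0.0197) in the knockout and 0.44 (SE 0.17, adjusted p = 0.132) in wild type. The diet effects differed by 0.36 (interval -0.15 to 0.86, adjusted p = 0.623). The knockout call was lost with no intensity trend (adjusted p = 0.0524) and without KO ND mouse 2, KO HFD mouse 2 or KO HFD mouse 3 (adjusted p between 0.0598 and 0.0895).

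**Figure D1:**
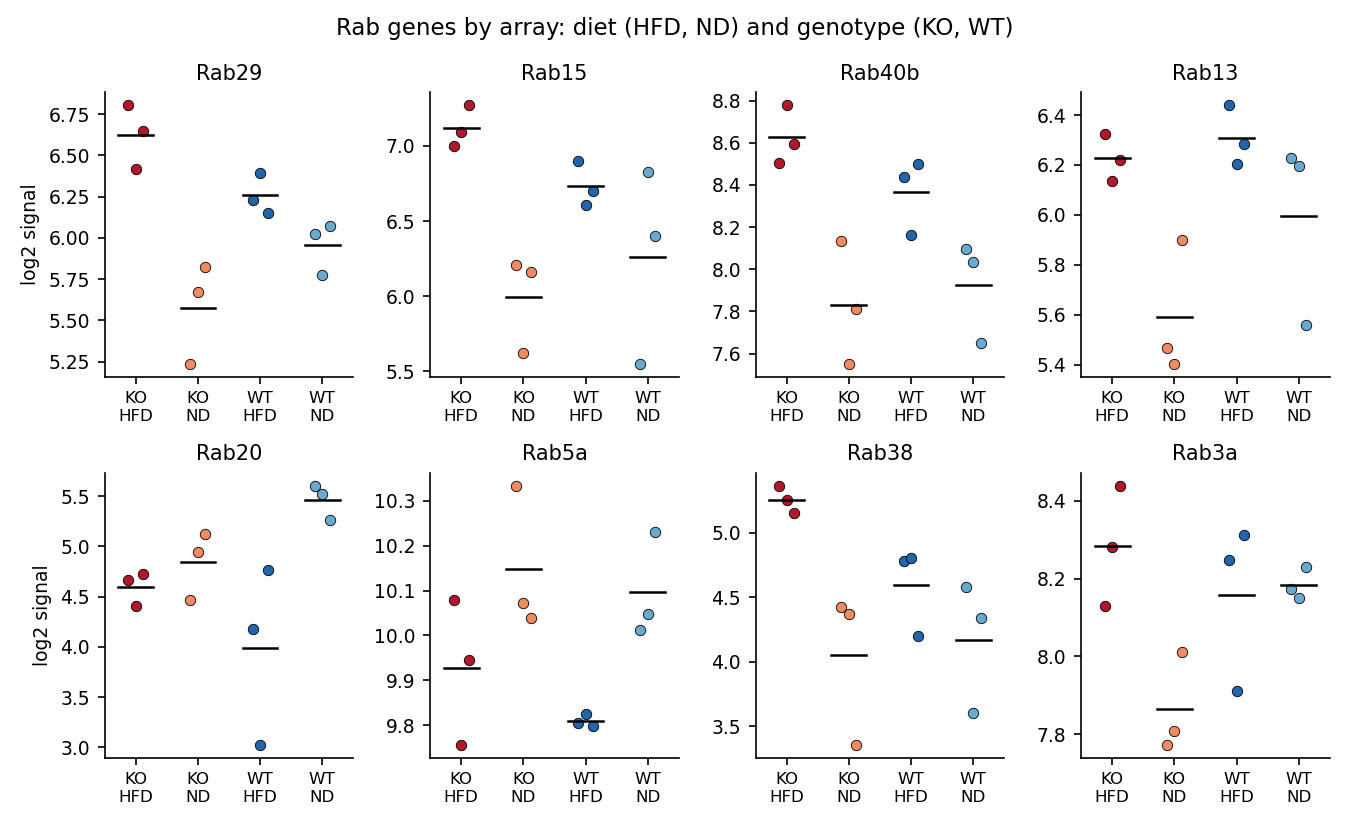
Log2 signal of 8 Rab genes on each of the 12 arrays (vertical axes, each with its own range), by group (horizontal axes); points are mice and bars are group means. The KO HFD points of Rab29, Rab15 and Rab40b all lie above the KO ND points, and the WT ND points of Rab20 all lie above the WT HFD points.

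Some markers of other cells moved with the diet in the same knockout groups, in a comparison that 4.54% of all genes passed. The 3′ to 5′ ratio for RNA quality overlapped between those groups and stood apart by diet in wild type. Of 11 macrophage markers measured, 10 passed the filter (Itgam did not), and 4 were higher in KO HFD. Their summed linear signal was 4323 to 7824 in KO HFD, against 2545 to 3468 in KO ND. In wild type it was 2072 to 4347 in WT HFD, against 3614 to 4031 in WT ND. All 9 fibroblast matrix markers measured passed the filter and 5 were higher in KO HFD, with sums of 13568 to 18911 in KO HFD, against 10548 to 11279 in KO ND. In wild type those sums were 8206 to 12198 in WT HFD, against 9574 to 10781 in WT ND. Of 8 adipocyte markers, all above the filter, Fabp4 was higher in KO HFD. Their sums were 29313 to 30151 in KO HFD, against 20445 to 24723 in KO ND. In wild type they were 22407 to 29715 in WT HFD, against 20923 to 22755 in WT ND. Of 11 endothelial markers, 0 were higher in KO HFD and 1 was lower (Flt1, -0.78, adjusted p = 0.0298). Endothelial sums overlapped, at 1791 to 2560 in KO HFD and 1897 to 2140 in KO ND. Of 6 Schwann and nerve markers, 0 passed for diet in the knockout. The log2 ratio of 3′ to 5′ signal, averaged over the actin and Gapdh controls, was 0.16 ± 0.13 in KO HFD and 0.07 ± 0.06 in KO ND, and 0.18 ± 0.02 in WT HFD and -0.02 ± 0.09 in WT ND (SD, n = 3 each). Single arrays ran from 0.02 to 0.28 in KO HFD and from 0.01 to 0.12 in KO ND, which overlapped. They ran from 0.16 to 0.20 in WT HFD and from -0.08 to 0.09 in WT ND, which did not. The part of these cells and of RNA quality in the Rab changes was not tested. With that ratio in the fit, the knockout difference was 1.01 for Rab29 (adjusted p = 0.0286), 0.83 for Rab40b (adjusted p = 0.0377) and 1.06 for Rab15, which no longer passed (adjusted p = 0.0839).

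Among the 45 tested members Rab38 had the largest diet difference in the knockout, but it did not pass. Rab38 serves melanosomes and other lysosome-related organelles. Its values were 5.36, 5.25 and 5.15 in KO HFD, against 4.42, 4.37 and 3.35 in KO ND, a difference of 1.21 (SE 0.37, adjusted p = 0.0787). Rab38 had 2 arrays below the filter, at 3.35 in KO ND and 3.60 in WT ND. It passed with limma's array weights (adjusted p = 0.0461) and with the median signal added before the log (0.0488). Rab3a, a Rab of regulated exocytosis, differed by 0.42 (SE 0.13, adjusted p = 0.0858). Its values were 8.13, 8.28 and 8.44 in KO HFD, against 7.77, 7.81 and 8.01 in KO ND. The probe sets of both genes carry the suffix x, which the array's maker gives to probes that may also bind unrelated transcripts. Each gene has a second, dimmer probe set without that suffix, with a mean of 4.0 for Rab38 and 6.06 for Rab3a. The diet differences of those probe sets were not examined alone.

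In wild-type muscle the diet call was Rab20 alone, and it was lower on the high fat diet. This 1 of 45 members compares with 6.06% of all genes, and with 2.99% that passed as lower. At an unadjusted p under 0.05 there were 5 members, against 23% of all genes. Rab20 is an endosomal and phagosomal Rab. It had 4.18, 3.02 and 4.77 in WT HFD, against 5.60, 5.53 and 5.26 in WT ND. The groups did not overlap, although the high fat values ranged widely and 1 of the 3 lay below the filter. The log2 difference was -1.47 (SE 0.38, adjusted p = 0.0383). The knockout values were 4.67, 4.40 and 4.73 in KO HFD, against 4.47, 4.94 and 5.12 in KO ND, a difference of -0.24 (SE 0.38, adjusted p = 0.774). The diet effect in knockout minus that in wild type was 1.23 (interval 0.07 to 2.39, adjusted p = 0.452).

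The Rab20 call was lost with no filter (adjusted p = 0.0699), with no intensity trend (0.0586), with the integrity covariate (0.192), with only the wild-type arrays in the fit (0.101), and with any 1 of 8 mice left out (0.0520 to 0.128): WT ND mouse 1, 2 or 3, WT HFD mouse 1 or 2, KO ND mouse 2 or 3, or KO HFD mouse 3. Without WT HFD mouse 2 the difference was -0.99.

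Averaged over genotypes, 5 of 45 Rab genes passed for diet, 4 higher and 1 lower, beside 13.7% of all genes (7.49% higher and 6.19% lower). Rab40b was higher by 0.62 (SE 0.12, adjusted p = 0.00458), Rab29 by 0.68 (SE 0.13, adjusted p = 0.00552) and Rab15 by 0.80 (SE 0.19, adjusted p = 0.0142). Rab40b kept its call under every alternative and with each mouse left out. Rab29 and Rab15 lost theirs with the integrity covariate (adjusted p = 0.0891 and 0.167) and in no other alternative that tested them.

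Rab13, which takes part in GLUT4 delivery in cultured rat muscle cells, was the fourth to rise, by 0.48 (SE 0.15, adjusted p = 0.0457). Its values were 6.32, 6.14 and 6.22 in KO HFD, against 5.47, 5.40 and 5.90 in KO ND, with no overlap. They were 6.44, 6.21 and 6.28 in WT HFD, against 6.23, 6.20 and 5.56 in WT ND, where the groups overlapped. Its single-genotype differences were 0.64 (adjusted p = 0.0973) in the knockout and 0.32 (adjusted p = 0.385) in wild type. The averaged call on Rab13 was lost with no filter, quantile normalization, median centring, no intensity trend or the integrity covariate (adjusted p 0.0513 to 0.351), and without any 1 of 10 of the 12 mice (adjusted p 0.0538 to 0.0998), the exceptions being WT ND mouse 1 and KO ND mouse 3.

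Rab5a, which drives fusion of early endosomes, was the member that fell, by 0.25 on the log2 scale (SE 0.08, adjusted p = 0.0425). It had 10.08, 9.76 and 9.95 in KO HFD, against 10.33, 10.07 and 10.04 in KO ND, where 1 high fat mouse lay within the normal diet range. The values were 9.81, 9.83 and 9.80 in WT HFD, against 10.01, 10.05 and 10.23 in WT ND, with no overlap. Its paralogs differed by -0.01 (SE 0.37, Rab5b) and -0.14 (SE 0.11, Rab5c) and did not pass. The Rab5a call was lost with no filter, quantile normalization, no intensity trend or the integrity covariate (adjusted p 0.0569 to 0.282), and without any 1 of 9 mice (adjusted p 0.0556 to 0.103), the exceptions being WT ND mouse 1, KO ND mouse 3 and KO HFD mouse 1.

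**Figure D2:**
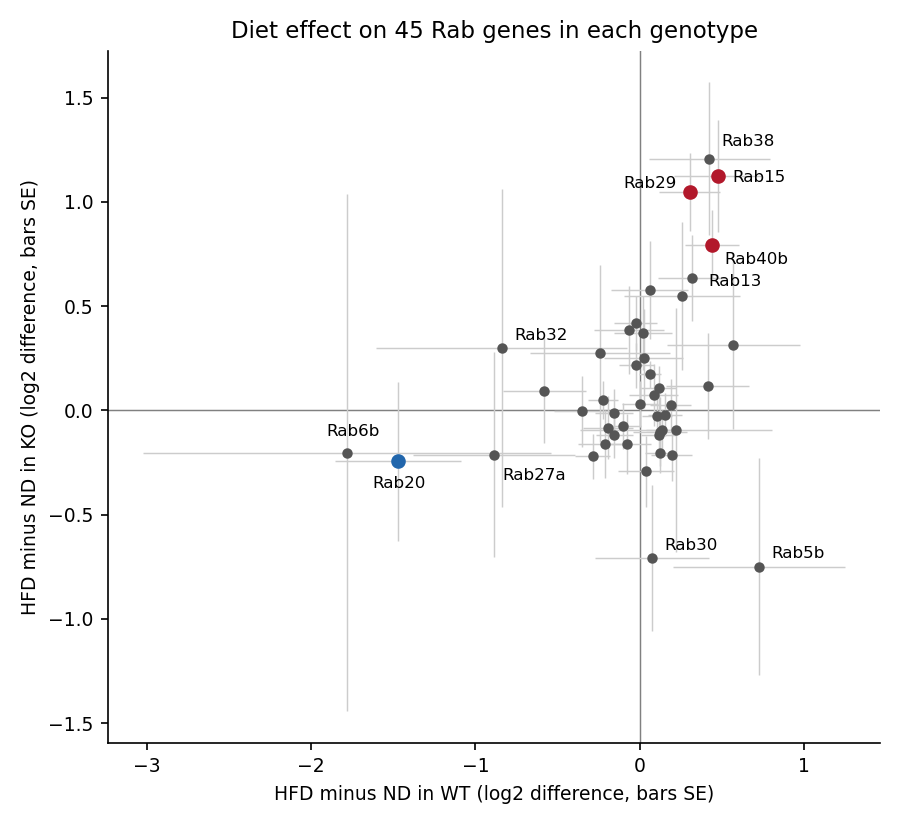
Diet effect (HFD minus ND, log2) on each of 45 Rab genes in wild type (horizontal axis) and knockout (vertical axis), with SE bars; red points passed in the knockout and the blue point passed in wild type. Rab29, Rab15 and Rab40b lie high on the vertical axis and to the right of 0, and Rab20 lies at -1.47 on the horizontal axis and -0.24 on the vertical axis.

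The diet effects of the 2 genotypes, which share no arrays, had the same sign in 27 of 45 Rab genes (60%), against 64.0% of all genes. No Rab gene passed the test of the difference between them (0.141% of all genes did), and 5 of 45 had an unadjusted p under 0.05, against 10.4% of all genes. The median of that difference was 0.11 over the Rab genes and 0.01 over all genes. The median diet difference was 0.02 for Rab genes and 0.05 for all genes in the knockout, and 0.06 and 0.04 in wild type. Diet groups did not overlap for 11 members in the knockout, against 26.5% of all genes, and for 10 in wild type, against 26.7%. Genotype groups did not overlap for 9 members on the high fat diet, against 19.4% of all genes, and for 11 on the normal diet, against 17%.

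The member that passed for genotype was Rab6b, whose wild-type signal lay mostly below the filter. Rab6b is the form of the Golgi GTPase Rab6 that is most abundant in brain. Its brightest probe set gave 6.36, 6.49 and 6.58 in KO HFD, against 3.60, 0.32 and 0.24 in WT HFD. On the normal diet it gave 6.50, 6.82 and 6.73 in KO ND, against -0.43, 3.80 and 6.14 in WT ND. All 6 knockout arrays lay above all 6 wild-type arrays. On the linear scale the knockout arrays held 82.3 to 113 units, and the wild-type arrays 0.740 to 70.6.

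The mean log2 signal of Rab6b was 6.58 ± 0.17 in knockout and 2.28 ± 2.62 in wild type (SD, n = 6 each). Of the 6 wild-type arrays, 4 were below the filter and no knockout array was, so Rab6b passed the filter through the knockout arrays and had to differ. Its fitted values are therefore a description. The averaged difference was 4.30 (SE 0.88, adjusted p = 0.0268), and its size depends on signals near the floor of the array: it was 3.73 with the 10th percentile of signal added before the log and 2.04 with the median added. Of the 45 members, 1 passed, beside 1.61% of all genes (0.899% as higher), and nothing is read from that count. On each diet alone it did not pass, with 5.09 (SE 1.24, adjusted p = 0.0696) on the high fat diet and 3.51 (SE 1.24, adjusted p = 0.288) on the normal diet.

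Rab6b has 4 probe sets. The second brightest, whose suffix s marks probes shared by several transcripts, gave 3.99, 5.11 and 4.23 in KO HFD, against 2.95, 4.05 and -0.22 in WT HFD. It gave 4.49, 4.79 and 4.51 in KO ND, against -0.12, -1.22 and 4.07 in WT ND. Its knockout minus wild-type difference was 2.93, and all but 1 of its knockout values lay above every wild-type value. The other 2 probe sets differed by 1.34 and -0.07, and 10 of 12 and 11 of 12 of their values were below the filter.

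**Figure D3:**
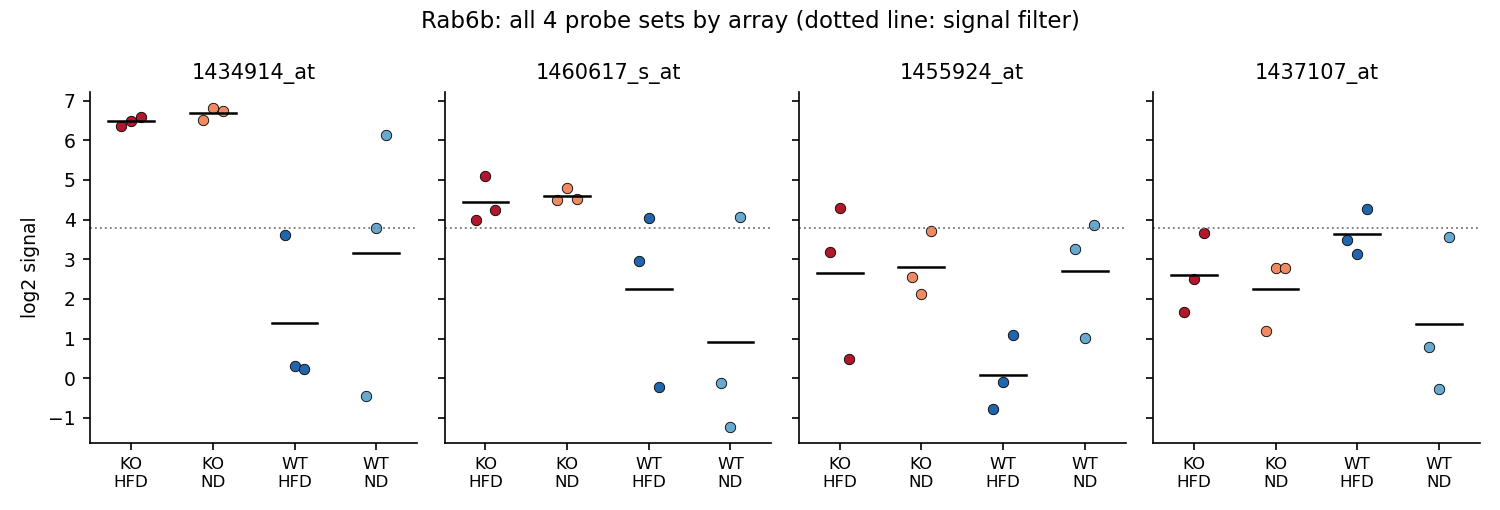
Log2 signal of the 4 Rab6b probe sets on the 12 arrays (vertical axis), by group (horizontal axes); points are mice, bars are group means and the dotted line is the filter at 3.78. In the brightest probe set the knockout points sit between 6.36 and 6.82, above every wild-type point.

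The call on Rab6b was lost with no intensity trend (adjusted p = 0.0824), with the integrity covariate (0.0586) and without any 1 of 7 mice (0.0568 to 0.0701): WT ND mouse 2, WT HFD mouse 3, KO ND mouse 1, 2 or 3, or KO HFD mouse 1 or 3. The difference without those mice was 4.02 to 4.46. The stricter filter removed the gene. The 6 tested genes nearest to Rab6b in the annotation of chromosome 9 did not pass for genotype, with differences from -0.13 (Ryk) to 0.44 (Slco2a1, adjusted p = 0.38). The 6 Schwann and nerve markers measured, all above the filter, had summed linear signals of 958 to 1555 in KO HFD, against 736 to 880 in WT HFD. The sums were 1296 to 1464 in KO ND, against 865 to 1139 in WT ND. Of these 6 markers 1 passed for genotype on average, beside 1.61% of all genes: Pmp22, a myelin protein, was higher in the knockout by 0.46. In the same comparison 4 of 10 slow fibre markers and 3 of 9 fibroblast matrix markers were higher in the knockout. No adipocyte, macrophage, endothelial or fast fibre marker passed in it. The part of these cells and fibres in the Rab6b signal was not tested.

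On each diet alone, no Rab gene passed for genotype. In this comparison 0.732% of all genes passed on the high fat diet and 0.414% on the normal diet. At an unadjusted p under 0.05, limma called 4 of 45 on the high fat diet (14.8% of all genes) and 5 of 45 on the normal diet (11.3% of all genes). The median genotype difference over Rab genes was 0.03 on the high fat diet and 0.00 on the normal diet, with 0.03 and 0.02 over all genes. The nearest to the threshold after Rab6b was Rab12, known from sorting of the transferrin receptor to lysosomes. It had 9.49, 9.77 and 9.54 in KO HFD, against 10.04, 9.96 and 9.91 in WT HFD, with no overlap, a difference of -0.37 (SE 0.10, adjusted p = 0.0817). Averaged over diets it differed by -0.26 (adjusted p = 0.0773), and it passed without KO HFD mouse 2.

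The Rabs of GLUT4 traffic other than Rab13 did not pass for diet in either genotype or on average. Rab10, the main GLUT4 Rab of mouse fat cells, had 11.62, 11.64 and 11.65 in KO HFD, against 11.42, 11.46 and 11.51 in KO ND, with no overlap. In wild type it had 11.64, 11.72 and 11.63 in WT HFD, against 11.66, 11.59 and 11.56 in WT ND, which overlapped. The averaged difference was 0.12 (interval 0.02 to 0.22, adjusted p = 0.113). Its other 2 probe sets gave -0.04 and -0.03.

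Rab8a, which acts in GLUT4 delivery in cultured rat muscle cells, had 6.23, 6.17 and 6.35 in KO HFD, against 6.45, 6.18 and 6.13 in KO ND. It had 6.50, 6.13 and 6.29 in WT HFD, against 6.91, 6.40 and 6.65 in WT ND. The groups overlapped in both genotypes and the averaged difference was -0.18 (interval -0.44 to 0.08, adjusted p = 0.358). The single-genotype differences of Rab8a were -0.0042 in the knockout and -0.35 in wild type (SE 0.17 each, adjusted p = 0.992 and 0.241). Its averaged sign turned when the probe sets were averaged (0.12) and with the integrity covariate (0.03).

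Rab14, of endosomes and the trans-Golgi, had 10.29, 10.70 and 10.43 in KO HFD, against 10.57, 10.44 and 10.48 in KO ND. In wild type it had 10.54, 10.49 and 10.68 in WT HFD, against 10.49, 10.40 and 10.37 in WT ND, and its averaged difference was 0.06 (interval -0.09 to 0.22). Of its 6 other probe sets, the 4 above the filter gave averaged differences from -0.27 to 0.07, and the 2 below it gave 0.14 and 1.11. Rab18, a Rab of lipid droplets, had 8.82, 8.76 and 8.73 in KO HFD, against 8.92, 8.97 and 8.79 in KO ND. It had 8.91, 9.09 and 9.0 in WT HFD, against 9.04, 8.73 and 8.89 in WT ND. The averaged diet difference of Rab18 was 0.00 to 2 decimals (interval -0.16 to 0.16).

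By role, the calls were spread over the endosomal, exocytic and other groups. Of 12 tested Rabs of the endoplasmic reticulum and Golgi, such as Rab1a and Rab2a, none passed for diet and Rab6b passed for genotype. In that group Rab30 stood lowest in the knockout on the high fat diet, at 4.27, 4.31 and 4.36, against 5.29, 5.08 and 4.69 in KO ND, without overlap (difference -0.71, adjusted p = 0.283). Of 7 early endosome Rabs, Rab20 fell in wild type and Rab5a in the averaged comparison, and the median diet difference of the 7 was -0.22 in the knockout and -0.19 in wild type. Rab5b had the widest split of this group between genotypes, at -0.75 in the knockout and 0.72 in wild type, but the difference of -1.47 did not pass (adjusted p = 0.511). Rab5b had 2 arrays below the filter, at 3.18 in KO HFD and 3.01 in WT ND.

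Of 7 recycling Rabs, Rab15 rose. Rab11a, Rab11b, Rab4a, Rab4b, Rab35 and Rab14 stayed between -0.16 and 0.25 in both genotypes, and none passed. Of 8 late endosome, lysosome and autophagy Rabs, Rab29 rose. Rab7, the central late endosome Rab, differed by -0.12 in the knockout and -0.16 in wild type (SE 0.11 each). Rab32, of mitochondria and lysosome-related organelles, had the largest genotype difference among tested members after Rab6b on the high fat diet, at 1.38 (SE 0.76, adjusted p = 0.427). That value rests on 1 array: it had 5.09, 4.30 and 4.79 in KO HFD, against 0.93, 5.10 and 4.02 in WT HFD.

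Of 7 exocytic Rabs, Rab13 rose in the averaged comparison. The median diet difference of these 7 was 0.37 in the knockout and 0.02 in wild type, beside 0.05 and 0.04 over all genes. On the normal diet all 7 were lower in KO ND than in WT ND, by a median of -0.32 (-0.40 to -0.10), beside 0.02 over all genes. On the high fat diet the median genotype difference was 0.13, beside 0.03 over all genes. The 7 genes were measured in the same mice, so they are not 7 separate observations. The KO ND arrays enter both the knockout diet difference and the normal diet genotype difference. None of these 7 passed for genotype. Of the 4 remaining Rabs, Rab40b rose. Its paralog Rab40c differed by -0.16 in the knockout and -0.21 in wild type and did not pass.

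**Figure D4:**
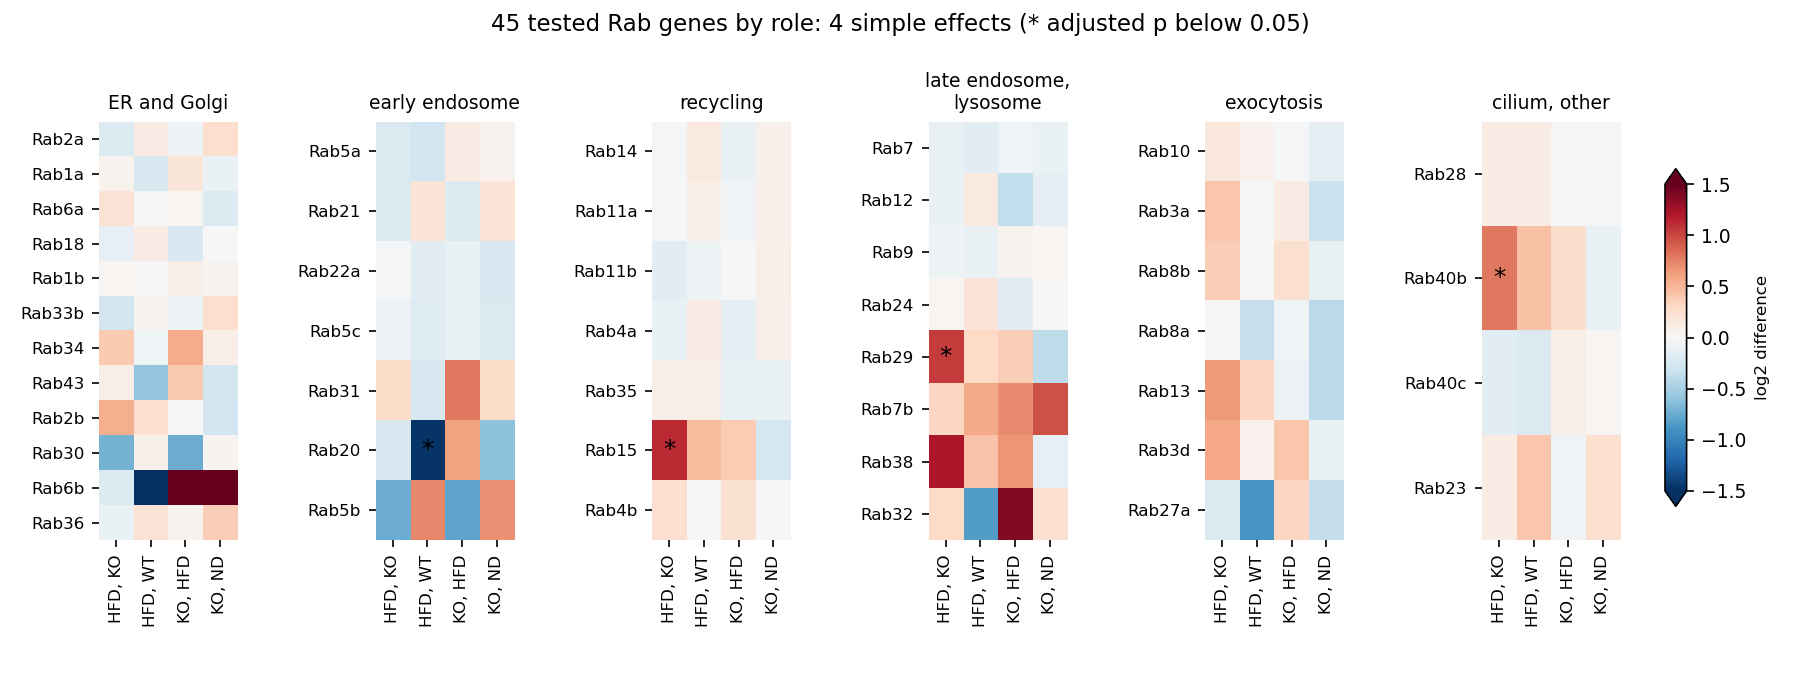
Log2 differences (colour, limited to -1.5 to 1.5) of 45 Rab genes in 6 role groups, brightest first within a group; columns give the diet effect in KO and WT (HFD minus ND) and the genotype effect on HFD and ND (KO minus WT), and stars mark adjusted p under 0.05. Stars stand on Rab29, Rab15 and Rab40b in the first column and on Rab20 in the second.

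The 45 tested members include 38 above the filter on all 12 arrays, and 7 with at least 1 array below it. Just inside the filter lay Rab27a with a mean of 4.0, Rab32 with 4.17 and Rab36 with 4.32. Just outside lay Rab27b with 3.69, Rab17 with 3.43 and Rab42 with 3.34. The others below it were Rab39b, Rab39, Rab19, Rab3b, Rab9b, Rab3c, Rab33a, Rab37, Rab26, Rab44 and Rab25. Of these 14, 4 were below the filter on every array and 3 were above it on at least 6. They were not tested, and a low array signal does not show that a gene is silent.

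Regulators of Rabs passed for diet in both directions. Their counts stand beside the shares of all genes given above: 4.54% in the knockout, 6.06% in wild type and 13.7% on average. Of 37 GAPs, 31 were tested. In the knockout 1 of the 31 passed, Tbc1d15, which was lower. In wild type 3 of the 31 passed: Tbc1d4 was higher on the high fat diet, and Tbc1d1 and Tbc1d15 were lower. Averaged over genotypes, 5 GAPs were higher and 2 lower of 31, so 7 in all.

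Tbc1d4, also called AS160, had 7.09, 7.87 and 7.35 in KO HFD, against 5.91, 6.54 and 6.84 in KO ND. It had 8.19, 6.75 and 8.37 in WT HFD, against 6.52, 6.31 and 6.26 in WT ND, and neither pair of groups overlapped. The knockout difference of 1.01 did not pass (SE 0.36, adjusted p = 0.134). The wild-type difference was 1.40 (SE 0.36, adjusted p = 0.0366) and the averaged one 1.21 (SE 0.25, adjusted p = 0.00812). Its paralog Tbc1d1 had 7.41, 7.25 and 6.87 in KO HFD, against 7.78, 7.51 and 7.80 in KO ND. The wild-type values were 6.75, 7.12 and 7.24 in WT HFD, against 7.92, 7.57 and 7.97 in WT ND. Tbc1d1 differed by -0.52 in the knockout, which did not pass (SE 0.18, adjusted p = 0.117), by -0.78 in wild type (SE 0.18, adjusted p = 0.0219) and by -0.65 on average (adjusted p = 0.00507). Among 10 slow fibre markers, 3 were higher with diet in wild type (6.06% of all genes passed) and 1 in the knockout (4.54%). Their summed linear signals were 23931 to 27699 in WT HFD, against 17064 to 21609 in WT ND. The knockout sums were 24931 to 32059 in KO HFD, against 25426 to 28016 in KO ND. No fast fibre marker of 12 passed for diet in either genotype. The part of fibre type in the Tbc1d4 and Tbc1d1 differences was not tested.

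Tbc1d15, a GAP for Rab7, had 9.84, 9.87 and 9.75 in KO HFD, against 10.80, 11.02 and 10.42 in KO ND. It had 9.97, 9.93 and 10.10 in WT HFD, against 10.55, 11.25 and 11.27 in WT ND. It passed in both genotypes, at -0.93 in the knockout (adjusted p = 0.0122) and -1.03 in wild type (adjusted p = 0.00613). Tbc1d24, a TBC protein of synaptic vesicle traffic, was higher on average by 0.72 (adjusted p = 0.00598), and Tbc1d8b by 0.59 (adjusted p = 0.0087). For genotype, Tbc1d7, which is also a subunit of the TSC complex, was lower in the knockout by -0.48 on average (adjusted p = 0.049).

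Of 37 tested GEFs, 2 were higher on the high fat diet in the knockout: Rab3il1, a GEF related to Rabin8, by 1.35 (adjusted p = 0.046), and Trappc6b, a subunit of the TRAPP complexes, by 0.40 (adjusted p = 0.0456). In wild type 1 passed, Rin2, a Rab5 GEF, which fell by 0.85 (adjusted p = 0.0146). On average 3 were higher and 0 lower of 37: Rab3il1, Trappc6b and Trappc4, a core TRAPP subunit, at 0.37 (adjusted p = 0.0205). Of the 7 tested GDI, escort and prenylation genes, Gdi2 was higher on the high fat diet in the knockout and Rabggtb lower on it in wild type. Gdi2 had 11.29, 11.23 and 11.35 in KO HFD, against 10.93, 10.96 and 11.01 in KO ND (difference 0.33, adjusted p = 0.0217). Its probe set carries the suffix x, as those of Rab38 and Rab3a do. Rabggtb, the catalytic subunit of the enzyme that prenylates Rabs, differed by -0.39 in wild type (adjusted p = 0.0409) and by -0.34 on average (adjusted p = 0.00952), where Gdi2 passed as well. For genotype, Pde6d, which carries prenylated proteins through the cytosol, was lower in the knockout by -0.47 on average (adjusted p = 0.0252).

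**Figure D5:**
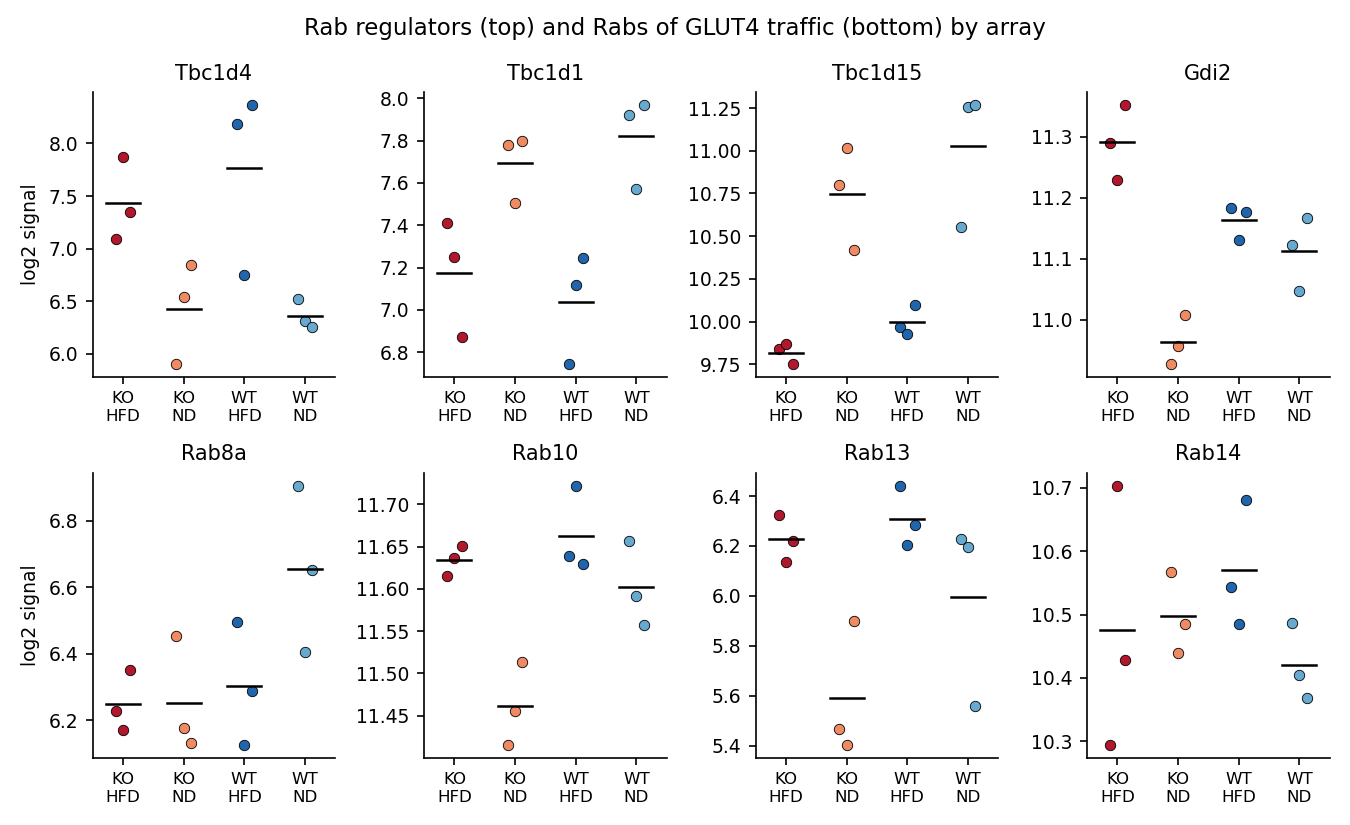
Log2 signal (vertical axes, each with its own range) of 4 Rab regulators, above, and 4 Rabs of GLUT4 traffic, below, on the 12 arrays by group; points are mice and bars are group means. The high fat diet points of Tbc1d15 all lie below the normal diet points in both genotypes, between 9.75 and 10.10 against 10.42 and 11.27.

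Of 55 listed Rab effectors, 39 were tested. Fyco1, a Rab7 effector that links autophagosomes to kinesin, was higher on the high fat diet in wild type by 0.52 (adjusted p = 0.00779). It was also the effector that passed for genotype: on the normal diet it had 10.87, 10.90 and 10.95 in KO ND, against 10.43, 10.21 and 10.44 in WT ND, a difference of 0.55 (adjusted p = 0.0222). The WT ND arrays enter both of these Fyco1 differences. Myo5a, a motor that several Rabs recruit, fell on the high fat diet in wild type by 0.97 (adjusted p = 0.0102). Averaged over genotypes, Myo5a fell by 0.79 (adjusted p = 0.00209). Bicd2, a dynein adaptor bound by Rab6, was higher on the high fat diet on average by 0.30 (adjusted p = 0.00831). No effector passed in the knockout for diet, nor for genotype on the high fat diet.

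Of 13 tested genes of GLUT4 storage vesicles, a list that also holds Tbc1d1 and Tbc1d4, 2 were higher and 1 lower with diet in wild type, and 1 was higher in the knockout. Beside those GAPs they were Ralgapb, of the Ral GAP complex, at 0.67 in wild type (adjusted p = 0.0215), and Sort1, sortilin, at 0.52 in the knockout (adjusted p = 0.0294). Both were named after their values were seen. Slc2a4, which encodes GLUT4 itself, differed by -0.02 in the knockout and -0.09 in wild type (SE 0.14 each) and did not pass. Among other small GTPases, diet calls in the knockout were 2 of 18 tested Ras genes and 0 of 11 Arf and Arl genes.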

How the data were processed

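The authors deposited MAS5 signals on the log2 scale, per the submitters' processing notes, which name no version, and those values were used unchanged. Of 45101 probe sets, 64 controls were removed. Gene names came from the platform annotation (34945 probe sets with 1 symbol, 932 with several, 9160 with none). Probe sets above the median mean signal (3.78, or 13.8 linear) were kept, and the brightest per symbol stood for its gene.

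One linear model of 4 group means was fitted to all 12 arrays with limma 3.58.1 in R 4.3.3, where eBayes used a trend on intensity (8 residual degrees of freedom, 5.42 prior). The 7 contrasts were 2 diet effects, 2 genotype effects, their averages and the interaction, each adjusted by Benjamini-Hochberg over 11345 genes at 0.05. Positive differences mean higher in HFD or KO. The script was tested on simulated data of the diet effect in wild type over 11345 genes: it recovered 25.4% of 1.5-fold, 61.2% of 2-fold and 87.9% of 4-fold changes. The simulation used normally distributed noise and changed 67, 67 and 66 genes by these folds. In the real comparison 687 genes passed, so these rates need not hold for the data.

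Values per array are given for members that passed, Rab8a, Rab10, Rab13, Rab14, Rab18 and the largest difference of each simple effect, and regulators and effectors are named when they passed, at most 3 per direction and contrast, plus Tbc1d1 and Tbc1d4. Rab3a, Rab12, Rab30, Rab32 and other members named by value were chosen after their values were seen. The members, roles and lists were chosen with earlier results of these data known. Array number limits precision.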

Additional observations from a re-analysis of the deposited data

How the results depend on the processing

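With 3 mice per group the number of arrays limits every value. Rab6b, Rab20, Rab32, Rab38, Rab5b, Rab36 and Rab27a had arrays below the filter. No paired analysis was possible because the labels give each mouse its own number and no number is shared between groups. For the diet effect in wild type, the 1 Rab call became 0 with no filter, the stricter filter, no intensity trend, the integrity covariate, or only the groups compared, and 0 to 1 with a mouse left out. For the diet effect in the knockout, the 3 calls became 1 with no intensity trend (Rab29), 2 with the stricter filter (which removed Rab29), median centring or the integrity covariate (Rab15 lost in both), 4 with the median signal added before the log (Rab38 added) and 5 with array weights (Rab38 and Rab3a added), and 1 to 3 with a mouse left out. For genotype on the high fat diet, the 0 calls became 1 with the median signal added before the log (Rab6b), and 0 to 1 with a mouse left out. The averaged diet calls of 5 became 3 with no filter, 3 with the stricter filter and 1 with the integrity covariate (Rab40b), and 3 to 7 with a mouse left out. The averaged genotype call of 1 became 0 with the stricter filter, no intensity trend or the integrity covariate, or when Rab6b and Rab10 were read as left out of the rule, and 0 to 2 with a mouse left out. Genotype on the normal diet and the interaction had 0 calls in every alternative and leave-out run. The averaged diet difference of Rab8a, -0.18, turned to 0.12 with the mean of its probe sets and 0.031 with the covariate, and that of Rab14, 0.06, turned to -0.011 with median centring and -0.020 with the mean of its probe sets. That of Rab18, at 0.00, was 0.0075 with quantile normalization, 0.0091 with the mean of its probe sets, 0.0095 with array weights and 0.040 with the covariate, and -0.043 to 0.036 with a mouse left out. The cause of these shifts was not tested. Over the values of single genes named by rule, 312 comparisons with an alternative or leave-out run kept direction and call, 64 lost the call, 6 gained it and 13 turned sign.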
